A study of Mus musculus with 14 samples.

Results

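The genes described here encode the subunits of the 5 complexes of oxidative phosphorylation, in mouse cerebral cortex after cerebral venous sinus thrombosis (CVST), a clot in the large veins that drain the brain. They were chosen by gene symbol alone: the subunits named Nduf (complex I), Sdh (complex II), Uqcr (complex III), Cox4 to Cox8 (complex IV) and Atp5 (complex V), which the nuclear genome encodes, and the mitochondrial genes mt-Nd, mt-Cytb, mt-Co and mt-Atp. This rule took 104 of the 55359 Ensembl genes of the count table, 91 nuclear and 13 mitochondrial. The nuclear ones include Ndufb4c and Ndufa11b, which are annotated as processed pseudogenes. The nuclear genes fell into complex I (42 genes), II (4), III (8), IV (19) and V (18), and the mitochondrial genes into complex I (7), III (1), IV (3) and V (2). The rule itself uses no measured value, but the members were chosen with earlier results of these data known.

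RNA-seq was run on 14 samples of bilateral cortex, frozen in liquid nitrogen: 4 from sham controls, 5 taken 2 days after CVST and 5 taken 7 days after CVST. The study's stated question was which transcripts differ between sham cortex and cortex damaged by CVST at each time. The labels give no strain, sex or age, no time at which the sham samples were taken, and do not say that the samples of a group are separate animals, so the p-values below measure the spread between these samples, which may be technical. In bulk tissue, fewer cells of a type and less RNA per cell cannot be told apart.

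Oxidative phosphorylation is the last stage of respiration and takes place in the inner mitochondrial membrane. Complexes I to IV hand electrons from NADH and succinate on to oxygen, complexes I, III and IV pump protons as they do so, and complex V, the ATP synthase, makes ATP from the proton gradient. Complexes I, III, IV and V are built from subunits of both genomes, while complex II is wholly nuclear. Neurons depend on this pathway for the ATP that restores their ion gradients, and the cortex is among the tissues with a high oxygen demand.

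Sequencing depth was 14.7 to 20.8 M counts per sample, and 96 of the 104 genes were counted often enough to be tested (83 nuclear, all 13 mitochondrial). Of the 8 others, Cox7b2, Cox8b and Ndufa11b had at most 9, 7 and 2 counts in any sample, and Ndufb11b, Ndufs6b, Cox6c2, Cox8c and a second entry named Atp5o (ENSMUSG00000116933) had 0 counts in every sample. The samples CVST 2 d 5 and CVST 7 d 2 lay with the sham samples on the first principal component of all genes. Levels are given as CPM, each gene's share of the library's counts in the usual CPM unit, scaled between samples by the TMM method, and levels are compared between genes only as the deposited FPKM, which also divide by length. A gene was called changed at a Benjamini-Hochberg adjusted p below 0.05 over the 16918 genes tested with edgeR's quasi-likelihood test, and log2 fold changes are from that fit.

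Per length, the members differed widely in level. Among nuclear genes the highest mean FPKM over the 14 samples in each complex were those of Ndufa4 (310.4 FPKM), a small subunit first placed in complex I and later found in complex IV, Sdha (127 FPKM), the flavoprotein that oxidises succinate, Uqcrh (359 FPKM), the hinge protein of complex III, Cox4i1 (683 FPKM), the common isoform of a regulatory subunit of complex IV, and Atp5md (811 FPKM), a small membrane subunit of the ATP synthase. Among the mitochondrial genes they were mt-Nd1 (11243 FPKM), mt-Cytb (11622 FPKM), mt-Co1 (21294 FPKM) and mt-Atp8 (61209 FPKM). The FPKM of the shortest genes cannot be set beside the rest: counts and FPKM together imply that the authors divided mt-Atp8 by 7.55 bases and Atp5md by 109 bases; how that length was set is not stated.

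Complex IV has subunits with tissue isoforms, and the same one of each pair was the higher in all 14 samples. Cox4i1 stood at 683 FPKM against 2.41 FPKM for Cox4i2, Cox6b1 at 318 against 3.61 FPKM for Cox6b2, Cox6a1 at 456 against 9.93 FPKM for the heart and muscle form Cox6a2, Cox7a2 at 170.5 against 3.595 FPKM for the muscle form Cox7a1, and Cox8a at 667 against 1.116 FPKM for the muscle form Cox8b. None of the tested isoforms was called in any comparison, and Cox8b was not tested. Cox6b2 had the highest log2 fold change of all members at 7 days against sham, 0.85 ± 0.44 (SE), with an edgeR adjusted p of 0.309, at 0.235 to 1.29 CPM in the sham samples and 0.488 to 2.01 CPM at 7 days. Cox7a1 had the lowest among nuclear members, -0.71 ± 0.36 (SE), with an adjusted p of 0.288, at 0.353 to 1.03 CPM in sham cortex and 0.344 to 0.447 CPM at 7 days.

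At 7 days against sham, the median log2 fold change of the nuclear members was below 0 in each of the 5 complexes, with complex II nearest to 0 at -0.08. The log2 fold change was below 0 for 81 of the 83 tested, the exceptions being Ndufv3 and Cox6b2, and its median was -0.21 (a change of -13.3%) where the median of all genes tested was -0.01. With the deposited FPKM the nuclear median was -0.14. One nuclear member, Atp5md, passed the adjusted threshold, against 0.833% of all genes called lower and 3.61% called higher. At an unadjusted p below 0.05, 30 nuclear members were lower and 0 higher, where 7.91% of all genes were lower and 11.7% higher. In 8 nuclear members every 7-day sample lay below every sham sample, where this held for 3.87% of all genes. These 8 members were Atp5md, Atp5g1, Atp5j, Atp5j2, Cox7c, Ndufb4, Ndufb10 and Ndufa13. All but Atp5md and Atp5g1 are named here because their values were seen. The members are subunits of shared complexes and are not independent replicates, so the count of genes below 0 has no p of its own.

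**Figure D1:**
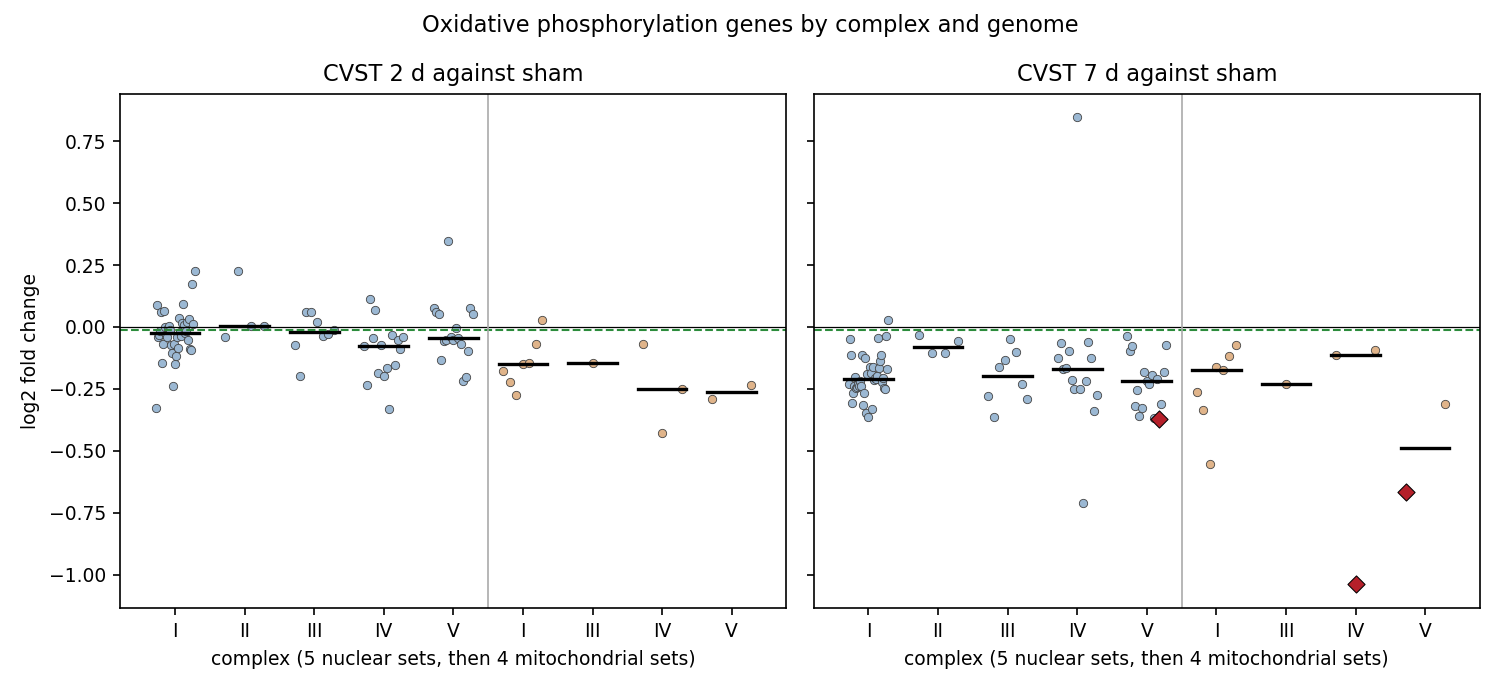
Log2 fold change against sham (y axis) of each nuclear (blue circles) and mitochondrial (orange circles) member tested, by complex (x axis), at 2 days (left) and 7 days (right); red diamonds are members called at an adjusted p below 0.05, black bars the median of each set and the green dashed line the median of all genes. At 7 days 81 of 83 nuclear and 13 of 13 mitochondrial members lie below 0, and the 3 diamonds are Atp5md, mt-Atp6 and mt-Co2.

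Atp5md, also called DAPIT or Usmg5, is a membrane subunit that links ATP synthases into dimers. The CPM of Atp5md were 109.9, 86.9, 97.9 and 116 in the sham samples, 101, 86.0, 90.9, 82.6 and 86.1 at 2 days and 76.1, 82.5, 86.6, 70.5 and 80.9 at 7 days. All 5 samples at 7 days lay below the lowest sham sample, and the 2-day samples overlapped both groups. Its log2 fold change at 7 days against sham was -0.37 ± 0.093 (SE), with an edgeR adjusted p of 0.0359, and at 2 days against sham -0.20 ± 0.093 (SE), with an adjusted p of 0.224. The call at 7 days was lost when sham 1, sham 3, sham 4, CVST 2 d 3, CVST 7 d 1, CVST 7 d 4 or CVST 7 d 5 was left out, with adjusted p between 0.053 and 0.130 in those fits, and held in the 7 others. It was also lost with the deposited FPKM (adjusted p = 0.0861), with only the 2 groups in the fit (0.0606), and after a trend with gene length was removed (0.130).

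All 17 tested nuclear subunits of the ATP synthase lay below 0 at 7 days, and differences between parts of the enzyme were not tested. The 5 small membrane subunits (Atp5md, Atp5k, Atp5mpl, Atp5l and Atp5j2) had a median log2 fold change of -0.31, from -0.37 to -0.19, with an unadjusted p below 0.05 in 4 of 5. The c-ring genes Atp5g1, Atp5g2 and Atp5g3 had a median of -0.33, with 2 of 3 at that level. That median is the value of Atp5g2, whose entry holds few of the reads that match it, and with the counts of near-identical copies added the median of the 3 was -0.18. The peripheral stalk, which holds the enzyme still (Atp5h, Atp5j, Atp5o and Atp5pb), had a median of -0.20, from -0.23 to -0.07, with 2 of 4 at an unadjusted p below 0.05. The F1 part, which includes the catalytic subunits (Atp5a1, Atp5b, Atp5c1, Atp5d and Atp5e), had a median of -0.10, from -0.32 to -0.04. Of these 5, 1, Atp5d, was at that level, and the ranges of the parts overlapped. Length differed too, with a median implied length of 117 bases for the membrane subunits and 895 bases for the F1 part. The role of length in these values was not tested.

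Atp5g1 encodes 1 of 3 precursors that are cut to the same c-ring protein. The CPM of Atp5g1 were 106, 88.1, 95.6 and 106 in the sham samples, 114, 93.5, 94.8, 87.7 and 86.6 at 2 days and 84.3, 79.4, 76.9, 64.1 and 81.0 at 7 days. Every 7-day sample lay below every sham and every 2-day sample. The log2 fold change at 7 days was -0.36 ± 0.10 (SE) against sham, with an edgeR adjusted p of 0.0536, and -0.31 ± 0.093 (SE) against 2 days, with an adjusted p of 0.0877. Atp5g3, the most abundant of the 3 by FPKM (290.3, against 188 for Atp5g1 and 7.19 for Atp5g2), had a log2 fold change of -0.18 ± 0.085 (SE) at 7 days against sham, with an adjusted p of 0.250.

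Complex I, which takes electrons from NADH, had 38 of 39 tested nuclear members below 0 at 7 days, with a median log2 fold change of -0.21. The 39 include the processed pseudogene Ndufb4c, which is no subunit, and Ndufa4, later found in complex IV. None of the 39 was called, and 14 had an unadjusted p below 0.05. The 7 core subunits, which carry the flavin and iron-sulfur clusters, had a median of -0.16. The 32 other members, grouped as accessory, had one of -0.22, and so did the 31 left when Ndufb4c was added to Ndufb4. Ndufb4, an accessory subunit of the membrane arm, had 20.8, 18.5, 22.6 and 21.7 CPM in the sham samples, 20.4, 19.97, 17.3, 16.3 and 20.4 at 2 days and 16.7, 17.6, 17.3, 15.6 and 14.2 at 7 days. The sham and 7-day samples did not overlap, and the log2 fold change was -0.36 ± 0.10 (SE), with an edgeR adjusted p of 0.0543. Summed with its near-identical copy Ndufb4c, it was -0.23 ± 0.093 (SE), with an adjusted p of 0.182. Ndufa13, also known as GRIM-19, ran from 56.4 to 70.8 CPM in sham cortex and from 49.1 to 55.0 CPM at 7 days, a gap that left the groups apart, with an adjusted p of 0.205. Ndufv3, a small subunit beside the flavoprotein Ndufv1, stood at 38.1 ± 3.98 (SD, n = 4) CPM in sham cortex and 38.8 ± 1.88 (SD, n = 5) CPM at 7 days, with a log2 fold change of 0.027 ± 0.10 (SE) and an adjusted p of 0.911.

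Complex II, which is also an enzyme of the citric acid cycle, lay nearest to sham at 7 days. Its 4 genes had a median log2 fold change of -0.08, from -0.11 to -0.03, and none had an unadjusted p below 0.05. The deposited FPKM of these genes summed to 332.5 ± 17.4 (SD, n = 4) in sham cortex and 332.2 ± 13.2 (SD, n = 5) at 7 days. Sdha, the most abundant of them, was at 335 ± 9.56 (SD, n = 4) CPM in sham cortex and 327 ± 35.4 (SD, n = 5) CPM at 7 days. The difference between complex II and the other complexes was not tested.

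Complex III, which passes electrons to cytochrome c, had 8 of 8 subunits below 0 at 7 days, with a median of -0.20 and 3 at an unadjusted p below 0.05. Its core subunits Uqcrc1, Uqcrc2 and Uqcrfs1 had a median of -0.10, and the 5 small accessory subunits one of -0.28. Complex IV, which reduces oxygen, had 14 of 15 nuclear subunits below 0, with a median of -0.17 and 4 at an unadjusted p below 0.05. Cox7c, a small membrane subunit, had 118, 100.4, 105 and 128 CPM in the sham samples, 127, 104, 105, 94.0 and 99.6 at 2 days and 90.2, 96.2, 88.2, 84.1 and 87.1 at 7 days. All 7-day samples were below all sham samples, and its log2 fold change was -0.34 ± 0.093 (SE), with an edgeR adjusted p of 0.0544. Cox4i1, the most abundant nuclear subunit of complex IV by FPKM, overlapped between sham and 7 days, at 349 ± 35.3 (SD, n = 4) and 321 ± 18.3 (SD, n = 5) CPM.

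**Figure D2:**
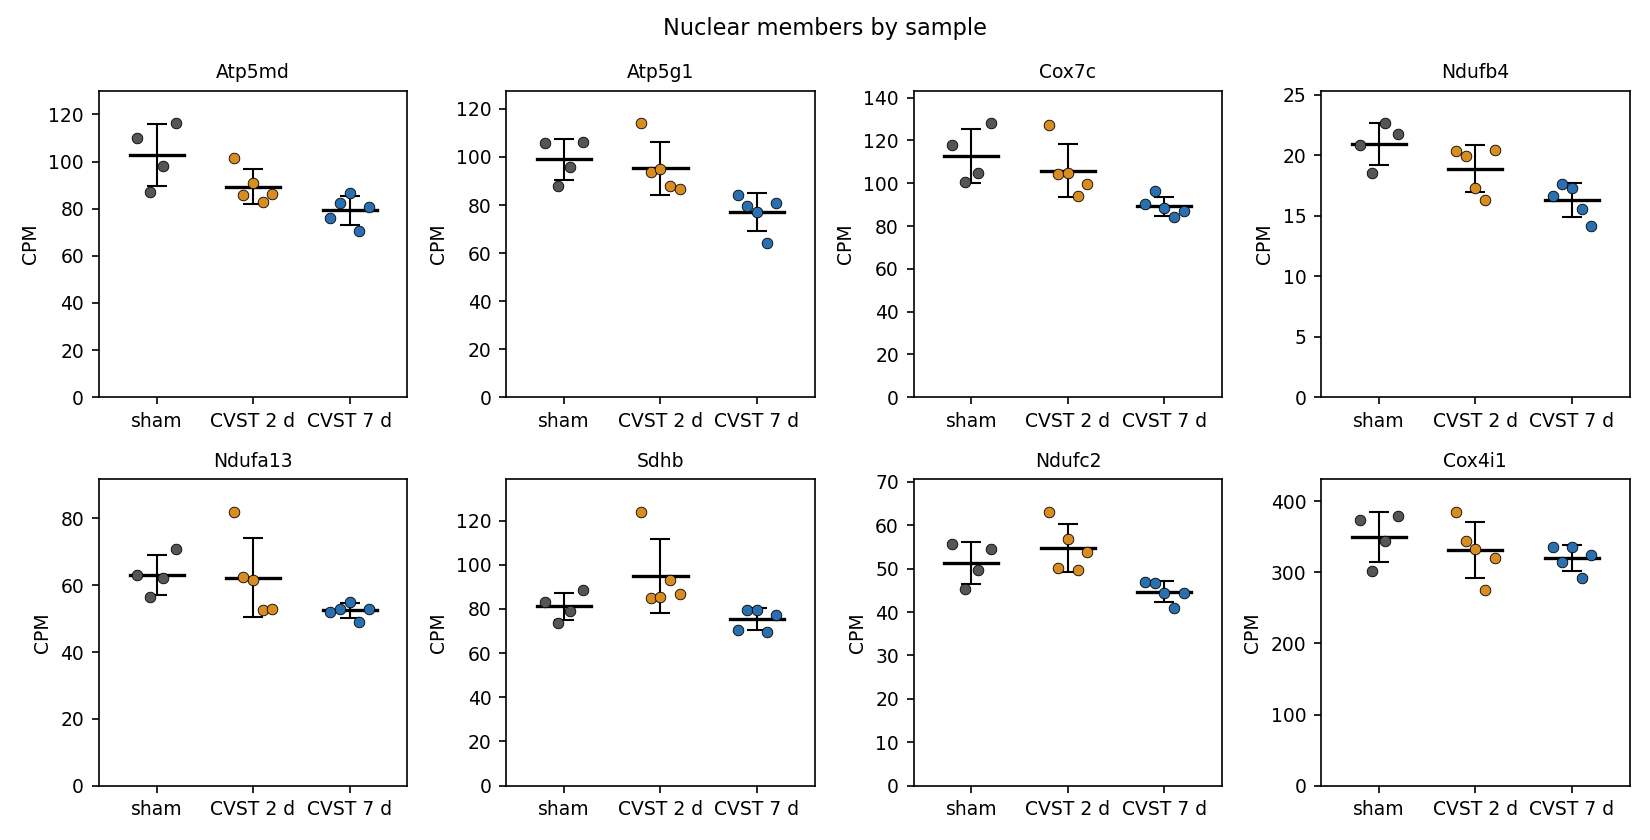
CPM (y axis, from 0) of 8 nuclear members in each sample of the 3 groups (x axis); points are samples, the thick bar is the group mean and the error bars are the SD. In Atp5md, Atp5g1, Cox7c, Ndufb4 and Ndufa13 every 7-day sample lies below every sham sample, Sdhb and Ndufc2 separate 2 from 7 days, and Cox4i1 overlaps in all groups.

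At 2 days against sham, no member was called in either direction by edgeR, where 2.98% of all genes were called higher and 0.969% lower. DESeq2 also called no member, where it called 5.78% of all genes higher and 2.26% lower, and limma on voom values called 1 higher, Ndufv3, where it called 8.39% of all genes higher. At an unadjusted edgeR p below 0.05, 4 nuclear members were lower (Atp5l, Atp5md, Ndufa1 and Ndufb2) and 1 higher (Ndufv3). The entries of 2 mitochondrial members were lower (mt-Co2 and mt-Nd2), where 12.3% of all genes were higher and 9.38% lower. With the counts of near-identical copies added, mt-Nd4l, mt-Nd3 and mt-Nd2 were lower at that level, where 1588 of 16908 genes were. On these sums mt-Co2 had an unadjusted edgeR p of 0.197. For mt-Nd4l the sum gave a log2 fold change of -0.31 ± 0.090 (SE), with an adjusted p of 0.0642. The copy of mt-Nd4l, Gm10222, was called lower by itself, at -0.46 ± 0.12 (SE) with an edgeR adjusted p of 0.0429. The sham and 2-day samples overlapped in each of the 96 members, where 3.06% of all genes had every 2-day sample below every sham sample. The nuclear log2 fold changes were below 0 in 56 of 83 members, with a median of -0.04. Leaving out 1 sample moved this median between -0.10 (without CVST 2 d 1) and 0.02 (without sham 4), with 0.01 without CVST 2 d 4, -0.0035 without sham 1 and -0.084 without sham 2. It was 0.02 with the deposited FPKM and -0.16 after the trend with gene length was removed. Ndufv3, the member with the smallest unadjusted p among those higher, had 37.1, 36.8, 34.7 and 43.9 CPM in sham cortex and 53.3, 44.9, 47.1, 38.0 and 39.6 CPM at 2 days. Its log2 fold change was 0.23 ± 0.10 (SE), with an edgeR adjusted p of 0.203. Atp5l, subunit g of the ATP synthase, was lower at both times by similar amounts, -0.22 ± 0.088 (SE) at 2 days and -0.21 ± 0.088 (SE) at 7 days on the log2 scale, with adjusted p of 0.166 and 0.198.

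Between the 2 times after CVST, 7 days against 2 days, no member was called by edgeR, where 1.54% of all genes were called higher and 1.25% lower. DESeq2 called 5 members lower (Ndufc2, Sdhb, Atp5g1, Atp5g2 and mt-Co2), where it called 3.63% of all genes lower. The nuclear members were below 0 in 77 of 83, with a median log2 fold change of -0.17, beside 0.01 for all genes. This median was -0.094 without CVST 2 d 1 and -0.23 without CVST 2 d 4, the ends of its range on leaving out 1 sample. At an unadjusted p below 0.05, 22 nuclear members were lower and 1, Cox6b2, was higher, where 10.6% of all genes were lower and 10.3% higher. After the trend with gene length was removed, the nuclear median was -0.0072. In Ndufa12, Ndufc2, Sdhb and Atp5g1, every 7-day sample lay below every 2-day sample, where this held for 2.13% of all genes.

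Sdhb, the iron-sulfur subunit of complex II, had the highest 2-day log2 fold change of complex II and the lowest at 7 days. The CPM of Sdhb were 83.3, 73.8, 79.1 and 88.4 in the sham samples, 124, 85.2, 85.4, 93.3 and 86.9 at 2 days and 70.5, 79.6, 79.7, 69.7 and 77.2 at 7 days. The 2-day sample CVST 2 d 1 stood far above the rest, and the other four 2-day samples lay within or just above the sham range. The log2 fold change was 0.23 ± 0.11 (SE) at 2 days against sham, -0.11 ± 0.11 (SE) at 7 days against sham and -0.33 ± 0.10 (SE) at 7 against 2 days, with edgeR adjusted p of 0.234, 0.627 and 0.0844. Ndufc2, a membrane subunit of complex I, had 63.1, 50.1, 56.7, 49.6 and 53.8 CPM at 2 days and 46.9, 46.7, 44.4, 41.0 and 44.4 CPM at 7 days, with no overlap. Its log2 fold change between the times was -0.29 ± 0.080 (SE), with an adjusted p of 0.0653.

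Reading the mitochondrial genes required a look at their copies. Pieces of mitochondrial DNA are inserted in the nuclear chromosomes, and a read from such a stretch fits the gene and the copy equally well. In the GENCODE annotation of GRCm38, an older build than the authors' mm39, 7 of the 13 mitochondrial members had a nuclear copy of at least 99% identity over at least 90% of the copy, and all 7 copies lay side by side on the minus strand of chr1:24611535-24616197. Much of the signal stood in the copies: of the counts of each pair, 97.46% for mt-Co2, 97.02% for mt-Co3, 82.2% for mt-Atp6, 75.63% for mt-Nd3 and 53.16% for mt-Nd4l stood in the entry of the copy, against 1.67% for mt-Co1 and 0% for mt-Nd4, whose copy had no counts. Among nuclear members, Atp5g2 had 94.74% of its pair in Gm10175, at chr7:23946646-23947290. Ndufb4 had 66.13% in Ndufb4c, at chr15:73809507-73809896, a processed pseudogene that the symbol rule also took as a member. The first 60 bases of the mt-Co2 transcript (chrM:7013-7696, plus strand) and of its copy Gm28661 (chr1:24614885-24615565, minus strand), the stretch of Atp5g2 (chr15:102662864-102671127, minus strand) that opens Gm10175 (minus strand), and the start of mt-Nd3 (chrM:9459-9806, plus strand) with its copy Gm28438 (chr1:24612775-24613119, minus strand) show how little separates a gene from its copy. They are from the GENCODE transcripts of GRCm38, 5′ to 3′, with the single base that differs in capitals.
mt-Co2: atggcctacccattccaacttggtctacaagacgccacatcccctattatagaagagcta
Gm28661: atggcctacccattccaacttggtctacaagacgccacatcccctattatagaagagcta
Atp5g2: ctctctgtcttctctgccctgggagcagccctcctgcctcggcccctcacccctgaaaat
Gm10175: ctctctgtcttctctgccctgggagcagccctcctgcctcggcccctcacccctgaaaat
mt-Nd3: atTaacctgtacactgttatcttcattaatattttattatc
Gm28438: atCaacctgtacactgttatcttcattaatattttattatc
Over the whole stretch compared, mt-Co2 and Gm28661 had 0 differences in 681 bases, and Atp5g2 and Gm10175 had 0 in 645. The only difference between mt-Nd3 and Gm28438 in 345 bases was T3C, counted from the first base of mt-Nd3.

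As deposited, the mitochondrial entries lay below sham at 7 days in 13 of 13 genes, with a median log2 fold change of -0.23, and at 2 days in 12 of 13, with a median of -0.18. The 2-day median was -0.094 without CVST 2 d 4, -0.22 without sham 3 and -0.15 with copies summed. At 7 days 2 were called, mt-Co2 and mt-Atp6, and 7 had an unadjusted p below 0.05. mt-Co2 encodes the subunit of complex IV that takes electrons from cytochrome c. The CPM of mt-Co2 were 489, 313, 316 and 335 in the sham samples, 295, 322, 303, 161 and 269.9 at 2 days and 165, 153, 209.9, 182 and 174 at 7 days. The sham and 7-day samples did not overlap, sham 1 stood far above the other sham samples, and the log2 fold change was -1.04 ± 0.18 (SE), with an edgeR adjusted p of 0.00945. This call held in each of the 14 fits that left out 1 sample, with adjusted p from 0.0041 to 0.038. mt-Atp6 encodes the membrane subunit through which protons pass in the ATP synthase. The CPM of mt-Atp6 were 2527, 1859, 1922 and 2563 in the sham samples, 2425, 1915, 1826, 1174 and 1717 at 2 days and 1622, 1360.3, 1365, 1279 and 1359 at 7 days. Every 7-day sample was below every sham sample, and the log2 fold change was -0.67 ± 0.17 (SE), with an adjusted p of 0.0365. That call held in 5 of the 14 fits, without CVST 2 d 1, 2, 4 or 5 or CVST 7 d 1, and had adjusted p up to 0.122 in the 9 others. It was also lost with the deposited FPKM (adjusted p = 0.105) and without both CVST samples near sham (0.0515). Among the genes with no near-identical copy, the 7-day samples of mt-Nd1, mt-Nd2 and mt-Cytb, the cytochrome b of complex III, lay below every sham sample, with log2 fold changes of -0.26 ± 0.10 (SE), -0.34 ± 0.10 (SE) and -0.23 ± 0.086 (SE) and edgeR adjusted p of 0.144, 0.0673 and 0.148.

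Both calls rest on a small share of the reads that match these genes, and for both the shares of sham and 7-day samples did not overlap. The entry mt-Co2 held 3.14 ± 0.48% (SD, n = 4) of the counts of mt-Co2 and its copy in sham cortex, 2.56 ± 0.49% (SD, n = 5) at 2 days and 1.87 ± 0.25% (SD, n = 5) at 7 days. For mt-Atp6 the shares were 20.2 ± 2.3%, 17.8 ± 3.0% and 15.01 ± 0.89%, while for mt-Nd3 they were 24.3 ± 4.1%, 24.9 ± 2.4% and 23.0 ± 1.9%, for mt-Nd4l 44.0 ± 4.4%, 49.5 ± 4.3% and 47.2 ± 2.4%, and for mt-Co3 2.85 ± 0.56%, 2.72 ± 1.1% and 3.30 ± 1.4%. With the counts of gene and copy summed, a step chosen after seeing the data, mt-Co2 had 12736, 10821, 10414 and 11987 CPM in the sham samples and 9962, 9362, 9391, 9276 and 9407 CPM at 7 days. The groups still did not overlap, but the log2 fold change shrank to -0.28 ± 0.10 (SE), with an edgeR adjusted p of 0.125. For mt-Atp6 the sham and 7-day sums overlapped, and the sum gave -0.23 ± 0.093 (SE), with an adjusted p of 0.175. Neither was called on the summed counts, so the large fold changes of the 2 entries are not those of all reads that match the genes.

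On the summed counts, the mitochondrial members gave a more even picture at 7 days. All 13 lay below 0, with a median log2 fold change of -0.26, 9 of 13 had an unadjusted p below 0.05 and 7 of 13 had no overlap with sham, where 7.94% of all genes were lower at that p and 3.86% had no overlap. One was called, mt-Nd3, a membrane subunit of complex I, where 0.822% of all genes were called lower. The summed CPM of mt-Nd3 were 1432, 1162, 1137 and 1361 in the sham samples, 1193, 1063, 1019, 745 and 1157 at 2 days and 943, 957, 902, 890.1 and 946 at 7 days. Every 7-day sample lay below every sham sample, and CVST 2 d 4 lay lowest of all. The log2 fold change was -0.46 ± 0.12 (SE), with an edgeR adjusted p of 0.0434. The entry of mt-Nd3 alone overlapped between sham and 7 days and was not called, at -0.55 ± 0.18 (SE) with an adjusted p of 0.101. Its copy Gm28438 was called lower by itself, at -0.43 ± 0.11 (SE) with an adjusted p of 0.0425. Leaving out 1 sample at a time kept the call of the sum in 3 of 14 fits, without CVST 2 d 1, 4 or 5. The adjusted p of the sum ran from 0.0143 to 0.130 over the 14. The smallest steps were those of mt-Nd6, the gene read from the other strand of the mitochondrial genome, at -0.075 ± 0.10 (SE), mt-Nd5 at -0.12 ± 0.10 (SE) and mt-Co1, the catalytic subunit of complex IV, at -0.12 ± 0.087 (SE), with adjusted p of 0.726, 0.544 and 0.487. Atp5g2 with its copies had a log2 fold change of -0.091 ± 0.11 (SE) at 7 days against sham (adjusted p = 0.703) and -0.17 ± 0.10 (SE) against 2 days (adjusted p = 0.373), where its own entry gave -0.33 ± 0.19 (SE) and -0.68 ± 0.18 (SE) with adjusted p of 0.363 and 0.0551.

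**Figure D3:**
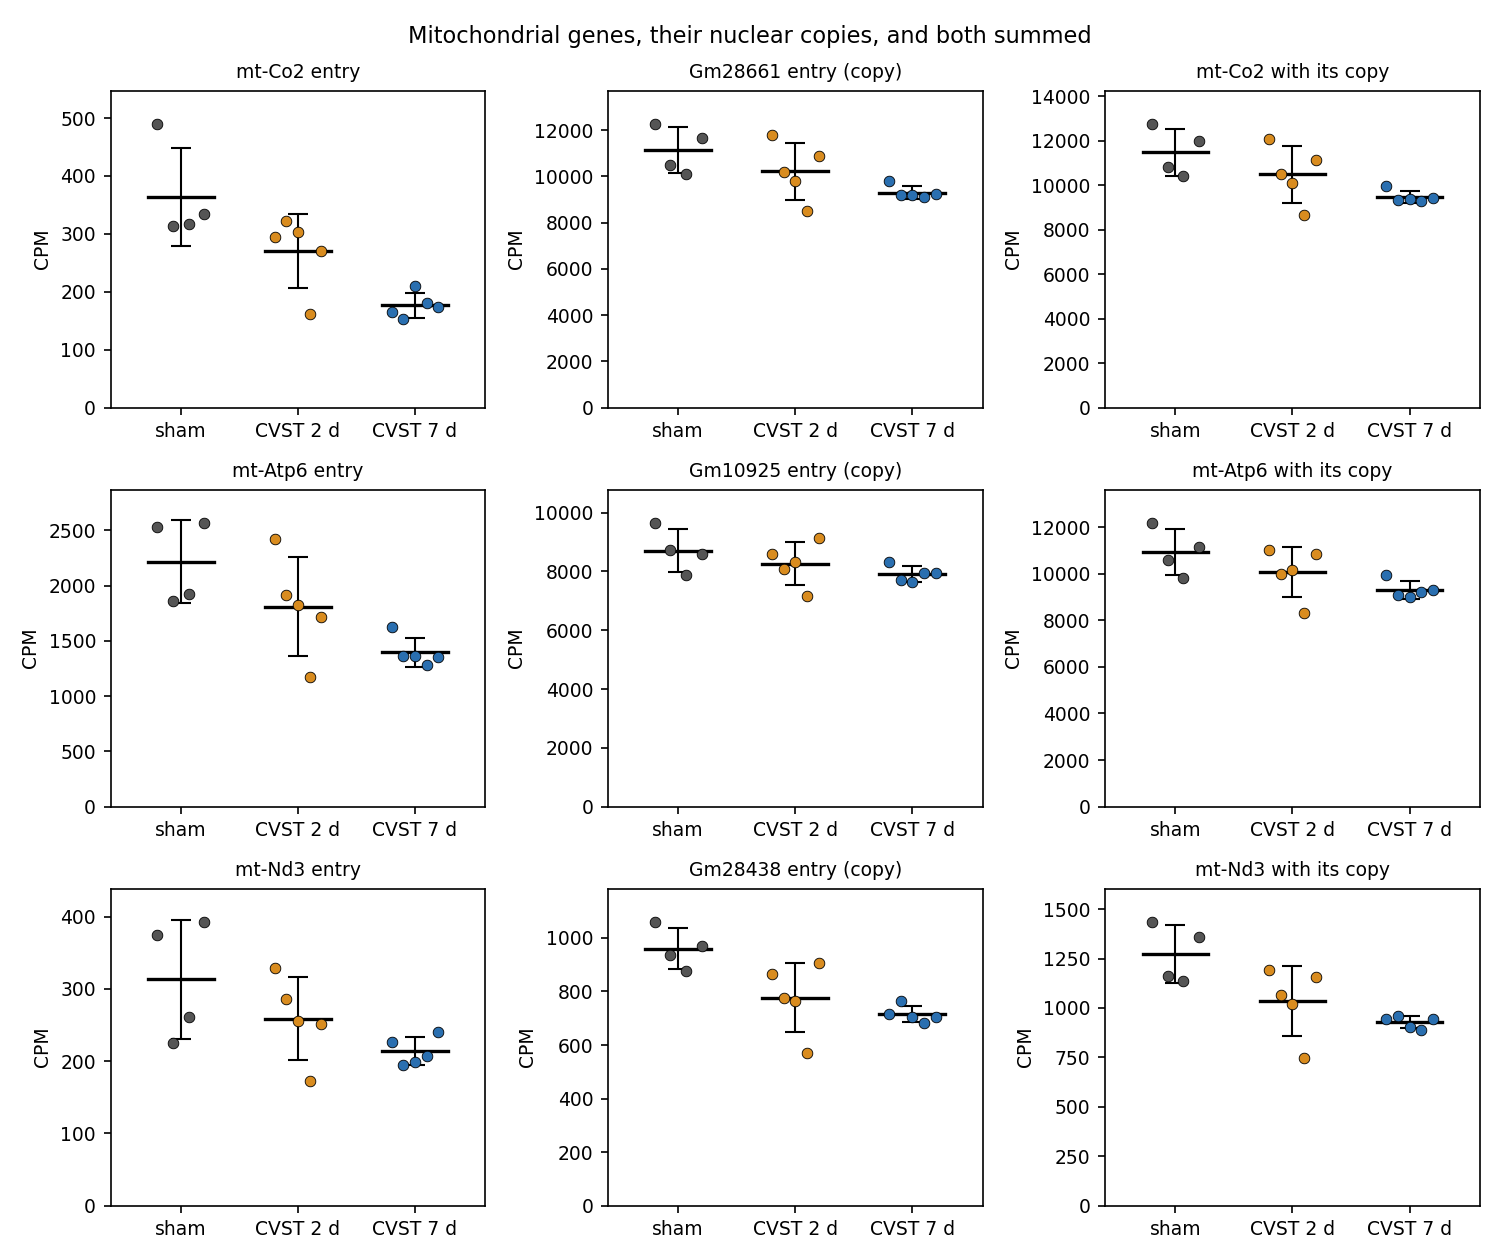
CPM (y axis, from 0) of the entries of mt-Co2, mt-Atp6 and mt-Nd3 (left), of their nuclear copies (middle) and of both summed (right), in each sample of the 3 groups (x axis); points are samples, bars are means and error bars are SD. In the sums of mt-Co2 and mt-Nd3 every 7-day sample lies below every sham sample, and in the sum of mt-Atp6 the groups overlap.

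Summed over genes, the means of both genomes' transcripts were lower at 7 days than in sham cortex, with overlapping ranges. The nuclear members summed to 8464 ± 612 CPM (SD, n = 4) in sham cortex, 8424 ± 873 CPM (SD, n = 5) at 2 days and 7616 ± 461 CPM (SD, n = 5) at 7 days. Mitochondrial members with their copies summed to 108651 ± 6727 CPM, 99712 ± 10833 CPM and 94175 ± 3453 CPM in the same order. The 7-day mean was 89.99% of sham for the nuclear sum and 87.6% for the sum of the mitochondrial entries without copies. Sham and 7-day samples ranged, for the nuclear sum and the mitochondrial sum with copies, over 7720.5 to 9194 against 6842 to 7931 CPM, and 99499 to 115646 against 91091 to 100108 CPM. The ratio of the mitochondrial to the nuclear sum, both with copies, was 12.8 ± 1.1 in sham cortex, 11.8 ± 1.1 at 2 days and 12.3 ± 0.79 at 7 days, and the 3 groups overlapped.

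**Figure D4:**
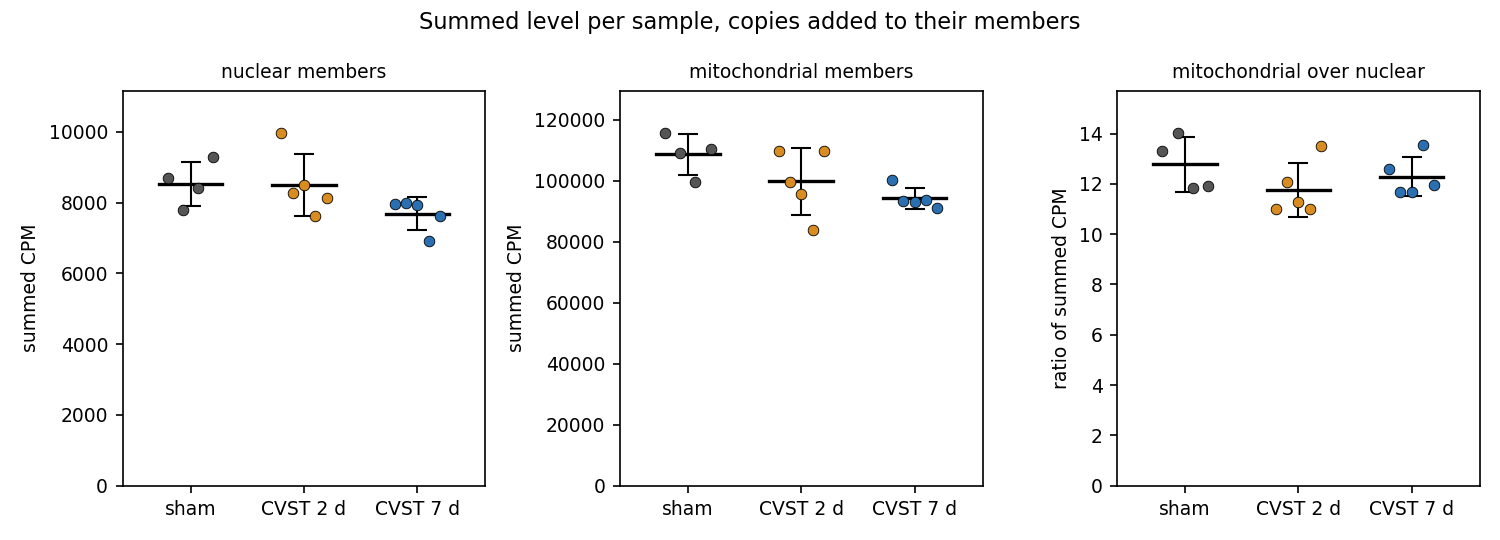
Summed CPM (y axis, from 0) of the nuclear members, of the mitochondrial members, and the ratio of the second to the first, in each sample of the 3 groups (x axis), with near-identical copies added to their genes; points are samples, bars are means and error bars are SD. The 7-day samples lie in the lower part of the sham range or below it in both sums, and the ratio overlaps between the groups.

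Gene length moved with these results. Most nuclear members are short, with a median implied length of 440 bases over the 82 for which it could be computed, and across them the log2 fold change at 7 days against sham was lower the shorter the gene (Spearman's rho = 0.52, a description across genes measured in the same libraries), with rho = 0.41 at 2 days and 0.21 for 7 against 2 days. Genes that are no nuclear member also tended lower the shorter the gene at 7 days against sham, but at 2 days they tended higher. Those of up to 500 bases (525 genes) had a median log2 fold change of -0.08 at 7 days and 0.07 at 2 days. In the same order, those of 1501 to 2500 bases (4200 genes) had medians of -0.01 and 0.02. Those from 4001 bases upward (3701 genes) had medians of -0.01 and -0.10. The 51 nuclear members of up to 500 bases had medians of -0.23 at 7 days and -0.04 at 2 days against sham. Between 7 and 2 days, the medians of members and other genes of up to 500 bases were -0.19 and -0.16. With a smooth trend on length taken out of each sample, a step chosen after seeing the data, the nuclear median at 7 days against sham was -0.15 and 6 nuclear members were called lower, Atp5d, Atp5g1, Cox7c, Ndufb2, Uqcr11 and Uqcrq, where that fit called 1.63% of all genes lower. At 2 days 5 were, Atp5l, Cox6c, Ndufa1, Ndufb2 and Uqcr11, where it called 1.26% lower. Atp5md was not among the called members after this step.

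**Figure D5:**
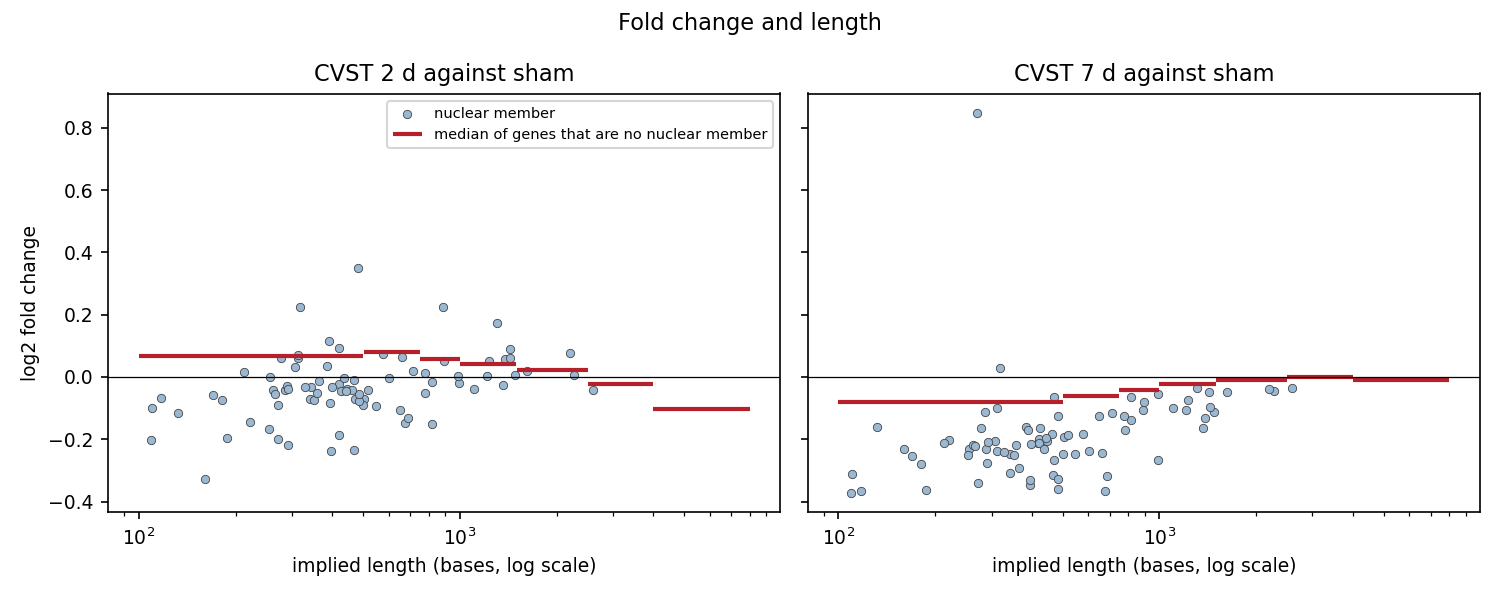
Log2 fold change against sham (y axis) by implied gene length in bases (x axis, log scale) at 2 days (left) and 7 days (right); blue points are the 82 nuclear members and red lines the median of genes that are no nuclear member in 7 length classes. At 7 days the median of the members is below that of the other genes in each class that holds members.

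Promoters of respiratory genes often hold sites for a few housekeeping factors, and the windows from 250 bases before to 50 after the start site in RefSeq (GRCm38.p6) were searched for them on both strands. Of the nuclear symbols, 69 had such a window. The NRF1-like motif GCATGCGC stood in 10 of the 69 (14.5%) and in 3.05% of all 27025 windows, and the longer NRF1 palindrome that contains it in 5 (7.25%) against 1.07%. The ETS site CCGGAAG, read by GABP, stood in 17 (24.6%) against 9.93%, the YY1 site AAGATGGC in 10 (14.5%) against 3.19% and the TATA-like TATAAA in 8 (11.6%) against 15.7%. The median log2 fold changes of members with and without a motif at 7 days against sham were -0.23 and -0.20 for CCGGAAG, -0.22 and -0.21 for GCATGCGC, -0.13 and -0.21 for the longer NRF1 palindrome, -0.20 and -0.22 for AAGATGGC, and -0.21 in both for TATAAA; these differences were not tested. The window of Atp5md, the called nuclear member (chr19:47090598-47090897, minus strand), holds the reverse complement of the ETS site, and that of Sdhb (chr4:140961021-140961320, plus strand) the site itself; both are printed 5′ to 3′ with the match in capitals.
Atp5md: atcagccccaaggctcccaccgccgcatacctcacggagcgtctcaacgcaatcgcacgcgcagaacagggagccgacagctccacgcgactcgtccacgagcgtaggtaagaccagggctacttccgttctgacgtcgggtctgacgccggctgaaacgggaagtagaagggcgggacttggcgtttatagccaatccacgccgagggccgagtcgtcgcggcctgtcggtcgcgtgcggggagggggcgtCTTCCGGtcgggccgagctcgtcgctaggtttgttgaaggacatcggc
Sdhb: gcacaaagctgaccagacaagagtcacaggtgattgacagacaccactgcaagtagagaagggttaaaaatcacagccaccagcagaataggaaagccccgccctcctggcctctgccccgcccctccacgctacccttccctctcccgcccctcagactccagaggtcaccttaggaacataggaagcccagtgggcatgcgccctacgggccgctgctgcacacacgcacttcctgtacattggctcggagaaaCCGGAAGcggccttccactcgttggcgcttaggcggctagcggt
A match of letters is a description of the window and no measurement of binding.

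Other genes of the pathway, taken from lists set up for this description, mostly did not pass the adjusted threshold. Of 21 electron carriers and subunits whose symbols the rule did not take, 0 were called at any comparison, and 15 were below 0 at 7 days against sham, with a median of -0.14. They include Cycs, cytochrome c, Cyc1, the cytochrome c1 of complex III, and Ndufab1, the acyl carrier protein of complex I, with log2 fold changes of -0.21 ± 0.09, -0.18 ± 0.09 and -0.19 ± 0.09 (SE) and edgeR adjusted p of 0.198, 0.282 and 0.287. The assembly factors of complex I were below 0 in 17 of 19, with a median of -0.16, and those of complex IV in 19 of 23, with a median of -0.15, again with 0 called. The 29 tested genes of mitochondrial DNA upkeep and transcription had a median of -0.01 at 7 days, with 0 called. Tfam, which packs mitochondrial DNA, and Polrmt, the mitochondrial RNA polymerase, had log2 fold changes of -0.06 ± 0.09 and -0.12 ± 0.07 (SE) with adjusted p of 0.757 and 0.384. Enzymes of the citric acid cycle and pyruvate entry (28 genes) had a median of -0.07, with 0 called, and Cs, citrate synthase, one of -0.05 ± 0.07 (SE; adjusted p = 0.740). By unadjusted p, the counts at 7 days over these lists ran from 0 to 5 lower and from 0 to 3 higher in any list.

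At 7 days against sham, Ucp2 and Nfe2l2 were the only genes of these lists that passed the adjusted threshold. Both were higher, where 3.61% of all genes tested were called higher. Ucp2, an uncoupling protein of the inner membrane that is abundant in immune cells, had mean CPM of 15.2 in sham cortex, 39.7 at 2 days and 60.3 at 7 days, with a log2 fold change of 1.99 ± 0.47 (SE) and an edgeR adjusted p of 0.0294. Nfe2l2, which encodes the antioxidant regulator NRF2, had mean CPM of 13.8, 23.7 and 30.7, with a log2 fold change of 1.15 ± 0.26 (SE) and an adjusted p of 0.0247. Both calls were lost without any one of the 4 sham samples, CVST 7 d 4 or CVST 7 d 5, with adjusted p up to 0.106 for Ucp2 and 0.0846 for Nfe2l2. They were also lost with the deposited FPKM (0.0759 and 0.0616) and with only the 2 groups in the fit (0.0711 and 0.0526), and that of Ucp2 with voom (0.0575).

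Markers of other cells moved at the same time. Of 12 microglia and macrophage markers, 10 were called higher at 7 days, all 12 had a log2 fold change above 0, and their summed CPM ran from 288 to 328 in sham cortex, 361 to 960.5 at 2 days and 410 to 3184 at 7 days. Of 10 astrocyte markers, 2 were called higher at each time, Gfap and Aldh1l1 at 2 days and Gfap and Aqp4 at 7 days. At 2 days 4 of the 10 lay below 0, and 3 were lower and 3 higher at an unadjusted edgeR p below 0.05. At 7 days all 10 lay above 0. The summed CPM of the 10 ran from 3463 to 4273 in sham cortex, 4197 to 4815 at 2 days and 4387 to 8051 at 7 days. The 12 excitatory neuron markers had 0 calls and summed to 4819 to 6228 CPM in sham cortex and 4052 to 6457 CPM at 7 days. At 7 days against sham 7 of the 12 lay below 0, with a median log2 fold change of -0.02, from -0.61 to 0.39. At an unadjusted edgeR p below 0.05, 1 was lower and 0 higher. Slc17a7 stood at 1176 mean CPM in sham cortex and 1180.1 at 7 days. The 10 parvalbumin interneuron markers also had 0 calls, with sums of 923 to 1202 CPM in sham cortex and 845 to 1132 CPM at 7 days. Of these 10, 7 lay below 0 at 7 days, with a median of -0.13, from -0.96 to 0.14, and 0 had an unadjusted p below 0.05. Oligodendrocyte (10), mural cell (12) and endothelial (10) markers had 0 calls at 7 days against sham. Muscle markers summed to 7.27 to 12.4 CPM over all samples. The part of these cell types in the levels of the respiratory genes was not tested.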

How the data were processed

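Per the submitters' processing notes, the authors used fastp, HISAT2, DESeq2 1.16.1 and the mouse build mm39; for the counting tool, annotation and strand setting, these notes name none. The authors deposited raw counts and FPKM per gene for all 14 samples. Counts were tested with edgeR 4.0.16 in R 4.3.3: TMM scaling, filterByExpr, 1 quasi-likelihood fit over the 3 groups, Benjamini-Hochberg adjustment over 16918 genes, two-sided. The 535 assembled loci with no Ensembl gene (0.203 to 0.278% of counts) were left out, and 36 members lie in assembled loci that carry a gene. limma 3.58.1, on voom values and on log2(deposited FPKM + 1), and DESeq2 1.42.0 gave alternatives. The edgeR script was checked on simulated data.

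The members, lists and tests were chosen with earlier results of these data known, so no count is independent support. The naming rule took called members, the mitochondrial genes, isoform pairs, the highest FPKM per complex and called genes of each list. It also took the 2 members of smallest p per comparison and direction. Other genes named are outside this rule, and only some are marked as named after their values were seen. Roles within complexes, near-identical copies (aligned with GENCODE transcripts of GRCm38), the length trend and leaving out the 2 CVST samples near sham were added after seeing the data. Implied length is count divided by FPKM and library size; RefSeq windows matched 69 nuclear symbols. The labels do not say whether replicate numbers pair the samples, and the main fit did not use them.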

Additional observations from a re-analysis of the deposited data

Results flagged for a closer look

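Of 147 groups of samples looked at, 7 held a highest or lowest sample set far apart from the others, and chance alone gives about 5% of groups. Sample CVST 2 d 1 stood highest in its group for Atp5g3, at 157.9 CPM where the others had 129.0 to 136.8, for Sdhb, at 124 CPM where the others had 85.2 to 93.3, and for the sum of the nuclear complex V genes, at 3744 CPM where the others had 2965 to 3162. Sample CVST 7 d 1 stood highest for mt-Nd1, at 7814 CPM against 7138 to 7248, and for the entry mt-Atp6, at 1622 CPM against 1279 to 1365. Sample CVST 7 d 4 stood highest for Cox4i2, at 1.45 CPM against 1.05 to 1.15. Sample sham 1 stood highest for the entry mt-Co2, at 489 CPM against 313 to 335; without it the log2 fold change at 7 days was -0.86, with an edgeR adjusted p of 0.0356.

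Sdhb was also noted because every 2-day sample lay above the sham mean and every 7-day sample below it: the 2-day mean exceeded the 7-day mean by 19.6 CPM. The fitted difference between the times had an edgeR adjusted p of 0.0844.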

How the results depend on the processing

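Setting 76 gene results against the alternatives gave 1976 pairs of a result and an alternative. Of these pairs, 1883 stayed on the same side of the threshold, 48 passed it, 45 no longer did and 0 were called with the opposite sign. Called in the main fit were only mt-Co2, mt-Atp6, Atp5md, Ucp2 and Nfe2l2 at 7 days against sham. The 45 losses are all of these, and most of the 1883 are uncalled results that stayed uncalled. Counts of called members depended on the method; the cause was not tested. At 7 days against sham, all genes called in either direction were 752 of 16918 in the main fit, 1387 of 18666 with DESeq2 and 866 of 16918 with voom. They were 265 of 16918 with FPKM and 566 of 16431 with only the 2 groups. Without the 2 CVST samples near sham they were 1324 of 16792, and with the length trend removed 935 of 16423. Of all genes, 0.833% were called lower in the main fit and 1.63% with the length trend removed. Nuclear members called lower at 7 days against sham numbered 1, and 4 with DESeq2, 4 with voom, 0 with FPKM and 0 with only the 2 groups. They numbered 3 without the 2 CVST samples near sham and 6 with the length trend removed. Mitochondrial members numbered 2, and 4, 3, 1, 2, 1 and 4 in the same order, and 1 with copies summed. With the replicate block both were 0. Over 13 pairs of samples with the same replicate number, correlations ran from -0.50 to 0.34 and were above 0.1 in 3. These values cannot settle whether the numbers pair the samples. The block took all genes called from 669, 752 and 473 to 315, 81 and 91 in the 3 comparisons (2 days, 7 days, 7 against 2 days). At 2 days, 5 nuclear and 1 mitochondrial members were lower with the length trend removed, and 1, Ndufv3, was higher with voom. For 7 against 2 days, nuclear members called lower were 4 with DESeq2, 4 with voom and 1 with FPKM, mitochondrial ones 1 with DESeq2 and 1 with voom, and the nuclear median was -0.0072 with the length trend removed, where the mitochondrial median was 0.01. Other genes of the pathway: at 2 days, 1 higher and 1 lower with DESeq2, 5 and 3 with voom, 2 higher with only the 2 groups, 2 higher without the samples near sham and 1 lower with the length trend removed, where the main counts were 0; at 7 days, higher 2 became 1 with voom and 0 with FPKM, with only the 2 groups and with the block, and lower 0 became 1 with DESeq2, 2 with voom, 1 with only the 2 groups, 1 without the samples near sham and 3 with the length trend removed; for 7 against 2 days, 1 higher and 2 lower with DESeq2, 1 lower with voom and 1 higher without the samples near sham. Leaving out 1 sample gave 0 to 3 nuclear and 1 to 3 mitochondrial members lower at 7 days, 0 to 2 and 0 to 1 for 7 against 2 days and 0 at 2 days; other pathway genes gave 0 to 1 higher and 0 to 1 lower at 2 days, 0 to 2 and 0 to 1 at 7 days, and 0 to 1 and 0 to 3 for 7 against 2 days. The nuclear median at 7 days ran from -0.27 (without sham 2) to -0.16 (without sham 4), and the nuclear sum from 87.4% to 92.6% of sham. All genes called ran from 76 to 1967, 119 to 1035 and 173 to 1309 on leaving out 1 sample; DESeq2 gave 1500, 1387 and 1278, voom 2616 and 1237 at 2 days and for 7 against 2 days, FPKM 246, 265 and 240, the length trend removed 784, 935 and 497, the fit without the samples near sham 2146, 1324 and 913, and the fit of 2 groups 81 for 7 against 2 days. Depth limits the isoforms below 2 CPM.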
